A study of Mus musculus with 14 samples.

Results

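Livers of mice fed a fast-food diet (FFD) were compared with livers of mice fed chow. The comparison used 6 of the 14 libraries of the series, 3 from chow (replicates 1, 2 and 3) and 3 from the FFD (replicates 28, 31 and 32), which the methods of the study describe as separate mice. The genes described were those with at least 1 FPKM (fragments scaled for exon length and for the size of the library) in at least 2 of these 6 libraries, which held for 10789 of 55427 genes. All 6 libraries carry the same genotype label, RAGE flox. They came from male Rage fl/fl mice of C57B6 background that were 8 to 10 weeks old when used and were fed for 14 weeks, so the chow controls carried the floxed Ager allele as well. The FFD was a purified AIN-76A diet given with water that held high-fructose corn syrup, so food and drink differed from chow together and their parts cannot be told apart. RNA was taken from whole snap-frozen liver. In such bulk RNA, fewer cells of a type and less RNA per cell cannot be told apart. The other 8 libraries came from mice on a heated form of this diet (HiAD), either alone (3), with pyridoxamine (2) or in mice labelled RageHepKO (3), and they enter here only through the shared estimate of spread and as levels set beside those of chow and FFD.

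The liver turns dietary fructose and glucose into fatty acids, and desaturates, esterifies and stores them or exports them in lipoproteins. Fatty acid synthesis is driven by the transcription factors SREBP-1c and ChREBP, while SREBP-2 drives cholesterol synthesis and is held back when sterols are plentiful. Excess fat in hepatocytes is the hallmark of fatty liver disease, in which Kupffer cells, the resident macrophages of the liver, and recruited leukocytes take part.

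The deposited table holds no read counts, so the depth of each library and the counting error of each value are unknown. Summed FPKM was 393274 to 601165 over the 14 libraries, and 9322 to 10293 genes reached 1 FPKM in the 6 compared. Ager, the floxed gene, had a scaled FPKM of 1.71, 2.15 and 0.801 on chow and 2.78, 2.68 and 2.47 on the FFD, an order without overlap that did not pass (adjusted p = 0.536 from limma). In the HiAD libraries, which bear the same genotype label, Ager was 0.0811 to 0.184, below all 6. Mitochondrial genes took 13.1% to 24.1% of the summed FPKM in chow libraries and 6.06% to 10.1% in FFD libraries. Chow replicate 2 stood apart. Its correlation with the other chow libraries over tested genes was 0.877 and 0.9, against 0.956 between those and 0.954 to 0.959 among the FFD libraries. It lay over 4-fold above all 5 other libraries at 49 genes and below them at 41, where each of the others did so at no more than 7 and 3. Igfbp1, an insulin-like growth factor binding protein that insulin represses, was at a scaled FPKM of 4537 in chow replicate 2 and at most 52.8 in the other 5. List counts are therefore also given without this library, where the groups of 3 FFD and 2 chow libraries did not overlap at 19% of all tested genes above chow and 19.1% below.

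At an adjusted p under 0.05 from limma, 8 genes differed (0.0741%), of which 1 was higher (0.00927%) and 7 were lower (0.0649%) on the FFD than on chow. Scd1 was the gene that rose. Those that fell were the phosphatidate phosphatase gene Lpin1, the selenium-binding protein gene Selenbp2, the processed pseudogene Gm13194, the small nucleolar RNA (snoRNA) genes Gm25296 and Gm23017, the small nuclear RNA gene Gm22973 and the microRNA gene Mir1906-1. At an unadjusted p under 0.05, 567 genes were higher (5.26%) and 617 lower (5.72%). All 3 FFD libraries lay above all 3 chow libraries at 930 genes (8.62%) and below them at 1048 (9.71%), and the median log2 fold change of all tested genes was -0.01. These shares are the background against which the gene lists below are read, and genes of a list named for such an order were chosen after their values were seen. With values as deposited, without scaling, the median was 0.15 and the order held at 1905 genes above and 459 below, with 8 calls in each direction. With libraries scaled to equal sums without mitochondrial genes, 1390 of the 10789 genes lay above and 624 below. With sample quality weights, which the study also used, 249 genes were higher (2.31%) and 362 lower (3.36%). Those weights were 4.11, 0.251 and 0.518 for chow replicates 1, 2 and 3, so that the chow level in that fit rested mostly on replicate 1. In the fit without chow replicate 2, all 8 genes kept their call and 12 more passed as lower. Without chow replicate 1, 11 genes passed as higher, and without chow replicate 3 it was 2. Without FFD replicate 28 or 31, 1 gene passed as lower, and without FFD replicate 32 it was 2.

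Scd1 encodes stearoyl-CoA desaturase 1, which puts a double bond into saturated fatty acids for triglycerides and membranes, and lies at chr19:44394455-44407879 on the minus strand of GRCm38. Its scaled FPKM was 108, 124 and 160 on chow and 2078, 1540 and 3348 on the FFD. The means were 131 ± 26.4 and 2322 ± 929 (SD, n = 3 each), a ratio of 17.8, and the log2 fold change was 4.09 (standard error 0.39, adjusted p = 0.00134 from limma). The lowest FFD library was well above the highest chow library, and the HiAD libraries, at 1827, 1872 and 2651, lay in the range of the FFD. Scd1 passed under each of the 18 alternatives run, with adjusted p-values of 7.83e-06 to 0.0307 from limma.

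Lpin1 encodes lipin 1, which makes the diacylglycerol that triglyceride synthesis uses and also acts in the nucleus as a coactivator of oxidation genes. It lies at chr12:16535669-16610966 on the minus strand. Its scaled FPKM was 14.7, 66.3 and 12 on chow and 1.17, 2.17 and 0.96 on the FFD, with a ratio of means of 21.6 in favour of chow and -3.33 as the log2 fold change (standard error 0.50, adjusted p = 0.0316 from limma). Chow replicate 2 was the high library of its group. Without it the log2 fold change was -2.59 (adjusted p = 0.00252 from limma), while the call was lost without FFD replicate 28, 31 or 32, with adjusted p-values up to 0.256 from limma. On the HiAD Lpin1 was at 11.8, 9.72 and 6.71, between the groups.

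Selenbp2, at chr3:94693556-94704413 on the plus strand, is more abundant in male than in female mouse liver. It was at 53.9, 28.6 and 33.8 on chow and 3.19, 1.37 and 5.7 on the FFD in scaled FPKM, 11.3 times as high on chow in the means (log2 fold change -3.24, standard error 0.51, adjusted p = 0.0418 from limma). The groups were wide apart, but the call held in 8 of 18 alternatives and was lost without any library other than chow replicate 2, with adjusted p-values up to 0.206 from limma. The HiAD libraries were lower again, at 0.33, 0.70 and 0. Its close relative Selenbp1 was at 41.3, 57.4 and 47 on chow and 41.2, 27.8 and 32.8 on the FFD, and reads may have been split between them.

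**Figure D1:**
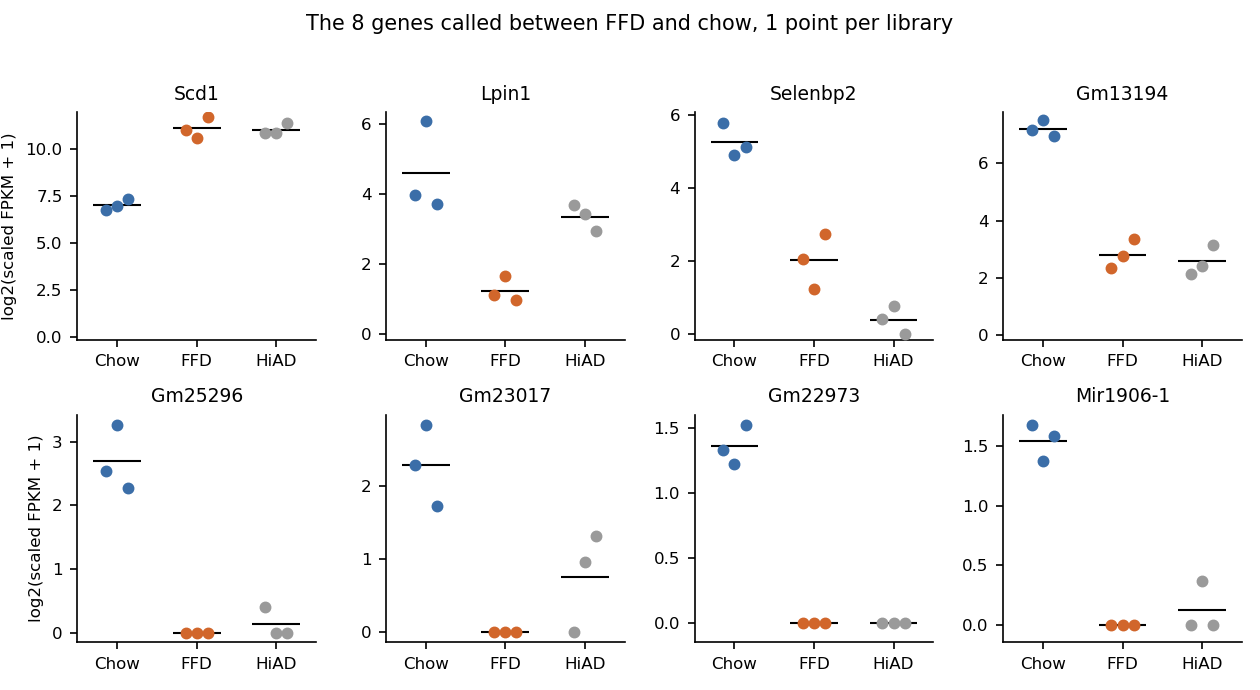
Expression of the 8 genes that passed, as log2 of scaled FPKM plus 1 on the vertical axis, with 1 point per library and a line at the mean of each group for chow, FFD and HiAD. The FFD points lie apart from the chow points in every panel, with Scd1 above chow and the other 7 genes below it, of which 4 are listed at 0 in all 3 FFD libraries.

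Gm13194 is a single-exon pseudogene of 311 bases at chr2:4942174-4942484 on the plus strand that resembles the ribosomal protein gene Rpl36a. Its scaled FPKM was 141, 182 and 123 on chow and 4.06, 5.81 and 9.15 on the FFD, a ratio of means of 23.5 in favour of chow (log2 fold change -4.39, standard error 0.44, adjusted p = 0.00134 from limma). It passed in all 18 alternatives run. HiAD libraries were as low as the FFD ones, at 3.46, 4.37 and 7.94, but those with pyridoxamine were at 98.8 and 81, so the level was not alike on the heated diet. A blastn alignment of its transcript with Rpl36a ran over 303 bases with 94.7% identity and 16 mismatches. Rpl36a itself was at 1.65 on chow and 1.84 on the FFD, and Rpl36al, the nearest abundant relative at 82.5% identity, at 150 and 123, with no difference of that size. Reads of such copies can be assigned to one another, and the level of Gm13194 is uncertain for that reason. The first 120 bases of Gm13194 and the stretch of Rpl36a aligned with them are shown because they show how few bases set the copies apart, with the differing bases in capitals.
Gm13194: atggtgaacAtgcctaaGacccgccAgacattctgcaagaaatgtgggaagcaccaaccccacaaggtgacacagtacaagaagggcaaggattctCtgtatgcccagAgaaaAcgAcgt
Rpl36a: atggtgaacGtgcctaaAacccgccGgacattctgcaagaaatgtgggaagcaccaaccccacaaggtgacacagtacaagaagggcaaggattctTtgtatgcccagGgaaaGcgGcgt

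The remaining 4 calls were short RNAs that were found in every chow library and listed at 0 in every FFD library. Gm25296 (chr11:48800866-48800932, plus strand) was at 4.84, 8.57 and 3.81 on chow, with an adjusted p of 0.0227 from limma. Gm23017 (chr9:88598348-88598419, minus strand) was at 3.88, 6.18 and 2.33 on chow (adjusted p = 0.0284 from limma). Both are small nucleolar RNAs, a class that guides chemical changes on ribosomal RNA. Gm22973, a small nuclear RNA gene at chr12:59040335-59040525 on the plus strand, was at 1.51, 1.33 and 1.87 on chow (adjusted p = 0.0284 from limma). Mir1906-1, a microRNA gene, was at 2.2, 1.59 and 2 on chow (adjusted p = 0.0418 from limma). These 4 genes reached 1 FPKM in chow libraries only, so they could enter the test only by being high there, as could 266 of the tested genes, while 245 did so through the FFD libraries only. No fold is given against values listed at 0, and at under 10 FPKM with no counts the number of fragments behind them is unknown. The call of each was lost without FFD replicate 28, 31 or 32, that of Gm22973 also without chow replicate 3 and that of Mir1906-1 also without chow replicate 1 or 3, with adjusted p-values up to 0.227 from limma. Where a longer transcript covers them, its reads and theirs cannot be told apart. Copies of these 4 genes elsewhere in the genome were not searched for, so whether reads were shared with such copies is unknown.

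The sequences of Gm25296, Gm23017 and Gm22973 are shown because the annotation names these genes by number only. In the snoRNAs the capitals mark the TGATGA near the start and the CTGA near the end, letters that match the C and D boxes of box C/D snoRNAs.
Gm25296: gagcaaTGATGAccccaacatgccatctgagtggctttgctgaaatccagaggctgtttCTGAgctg
Gm23017: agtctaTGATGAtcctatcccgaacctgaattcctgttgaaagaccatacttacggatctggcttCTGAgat
Gm22973: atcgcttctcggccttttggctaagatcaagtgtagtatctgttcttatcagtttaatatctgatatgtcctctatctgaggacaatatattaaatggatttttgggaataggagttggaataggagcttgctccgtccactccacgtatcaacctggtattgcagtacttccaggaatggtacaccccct

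The snoRNAs were set beside the genes that host them. Of 142 tested snoRNAs, 25 (17.6%, against 9.71% of all tested genes) had all FFD libraries below all chow libraries and 0 the reverse, with a median log2 fold change of -0.77. Without chow replicate 2 it was 63 of 134 (47%, against 19.1%). Of the 25, Gm25296, Gm23017 and Snord95 reached 1 FPKM in chow libraries only, so they could enter the test only by being high there. How many of the others did so was not counted. The share of the summed FPKM that all snoRNAs took together overlapped between the diets. It was 0.319%, 0.233% and 0.215% on chow and 0.351%, 0.258% and 0.227% on the FFD. Gm25296 touches an exon of Rack1, a ribosomal scaffold gene, which was at 12.2, 19.3 and 7.03 on chow and 16, 13.2 and 11.9 on the FFD. The host thus overlapped between the diets where its snoRNA did not. Snord95, another snoRNA of Rack1, was at 4.95, 4.76 and 2.91 on chow and 0.0612, 0 and 0 on the FFD, and did not pass (adjusted p = 0.0794 from limma). Gm23017 lies in the noncoding RNA 9430037G07Rik, which was at 1.56, 5.39 and 1.74 on chow and 0.577, 0.396 and 0.451 on the FFD. That host likewise reached 1 FPKM in chow libraries only. Over 132 snoRNAs inside 75 tested host genes, the median log2 fold change was -0.76 for the snoRNAs and -0.30 for the hosts. The 237 tested genes with at most 100 bases of exon had a median of -0.55, but they include snoRNAs such as Gm25296 and Gm23017. The 171 tested microRNA genes had a median of -0.08, with 18 below (10.5%, against 9.71%) and 8 above (4.68%, against 8.62%). The part of gene length in the snoRNA differences was not tested.

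After the 8 calls, the 15 positive and 15 negative genes with the smallest p had adjusted p-values of 0.065 to 0.104 and of 0.0552 to 0.103 from limma, so that none passed, and none of the 30 overlapped between the groups. Among the positive genes, S1pr1, a receptor for sphingosine 1-phosphate, was at 16.8, 8.26 and 9.94 on chow and 34.3, 29.8 and 28.7 on the FFD. Cxcl12, a chemokine, was at 36.5, 34.4 and 36.1 on chow and 71.5, 67.3 and 66 on the FFD. Dusp6, a phosphatase that acts on ERK, was at 10.1, 4.61 and 7.4 on chow and 19, 18 and 28.7 on the FFD. The groups of these 3 genes were apart by more than the spread within them, with log2 fold changes of 1.39, 0.92 and 1.48 (standard errors 0.24, 0.17 and 0.26). The receptor phosphatase Ptprf (1.07) and the metalloproteinase family member Adam11 (1.84) were of the same order. Among the negative genes, Slc37a4, which carries glucose 6-phosphate into the endoplasmic reticulum, was at 73.6, 116 and 48.8 on chow and 32.1, 26.2 and 23 on the FFD. Mfsd2a, a transporter of lysophospholipids, was at 25.1, 25.6 and 64.2 on chow and 8.11, 6.5 and 9.02 on the FFD. Its HiAD libraries, at 49.6, 62.5 and 29.2, were above the FFD ones as well. Noct, the nocturnin gene, was at 2.8, 7.49 and 10.8 on chow and 0.698, 1.26 and 1.1 on the FFD. Eif4ebp3 (log2 fold change -3.39) and AC115631.1 (-2.70) overlap on the same strand, so their reads may be shared.

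Genes of cholesterol synthesis tended to the low side of chow, with 21 of 26 log2 fold changes negative. Of the 26 tested genes of cholesterol synthesis and uptake, 0 passed, 10 had all FFD libraries below all chow libraries (38.5%, against 9.71% of all tested genes), 2 had them above (7.69%, against 8.62%), and the list median was -0.31. Fdps, which makes farnesyl diphosphate, was at 2.28, 6.72 and 3.12 on chow and 0.622, 0.864 and 0.708 on the FFD (log2 fold change -1.45, standard error 0.30, adjusted p = 0.104 from limma). Msmo1, a sterol methyl oxidase, was at 4.34, 9.48 and 2.8 on chow and 1.92, 1.67 and 1.67 on the FFD. Cyp51, the lanosterol demethylase, was at 7.5, 11.1 and 5.61 on chow and 2.66, 4.64 and 4.25 on the FFD. Sqle, the squalene epoxidase, was at 1.27, 2.93 and 0.757 on chow and 0.566, 0.495 and 0.406 on the FFD. Chow replicate 2 was the highest library for each of these 4 genes, and without it 9 of 24 genes of the list lay below (37.5%, against 19.1%). Dhcr7, Lss, Nsdhl, Hsd17b7, Insig1 and Srebf2, the gene of SREBP-2, were the other genes below, while Fdft1 and Sc5d were above. Fdps and Sqle reached 1 FPKM in chow libraries only, so they could enter the test only by being high there. With sample quality weights Fdps, Msmo1, Dhcr7 and Cyp51 passed as lower. With values as deposited 6 of 26 genes lay below (23.1%, against 4.25%).

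Beside Scd1, no gene of fatty acid synthesis passed. Of 19 tested genes of fatty acid synthesis and desaturation, 4 lay above chow without overlap (21.1%, against 8.62%) and 1 below (5.26%, against 9.71%), with a median of 0.13. Scd2, the desaturase of the same family that is widespread outside the liver, was at 0.916, 0.681 and 0.687 on chow and 1.67, 2.44 and 1.74 on the FFD. Fads1, the delta-5 desaturase of polyunsaturated fatty acids, was at 59, 40.8 and 45.5 on chow and 71.1, 75.3 and 92.3 on the FFD. The desaturases were thus 3 of the 4 genes above, the other being Acaca, whose product makes malonyl-CoA (0.745, 0.682 and 0.791 on chow and 0.953, 1.11 and 1.12 on the FFD). Scd2 and Acaca reached 1 FPKM in FFD libraries only, so they could enter the test only by being high there. Fasn, the fatty acid synthase, was at 5.6, 2.93 and 5.46 on chow and 2.48, 3.12 and 3.09 on the FFD. Srebf1, the gene of SREBP-1, was at 6.89, 2.18 and 9.21 on chow and 19.7, 11.8 and 6.43 on the FFD. Mlxipl, the gene of ChREBP, was at 7.98, 4.42 and 19.99 on chow and 6.02, 3.57 and 4.3 on the FFD. These 3 genes overlapped between the diets, and so did Acly, the ATP citrate lyase gene. Acss2 was the gene below. Without chow replicate 2, 4 of the 19 genes lay above and 4 below (21.1% each, against 19% and 19.1%), close to the background.

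**Figure D2:**
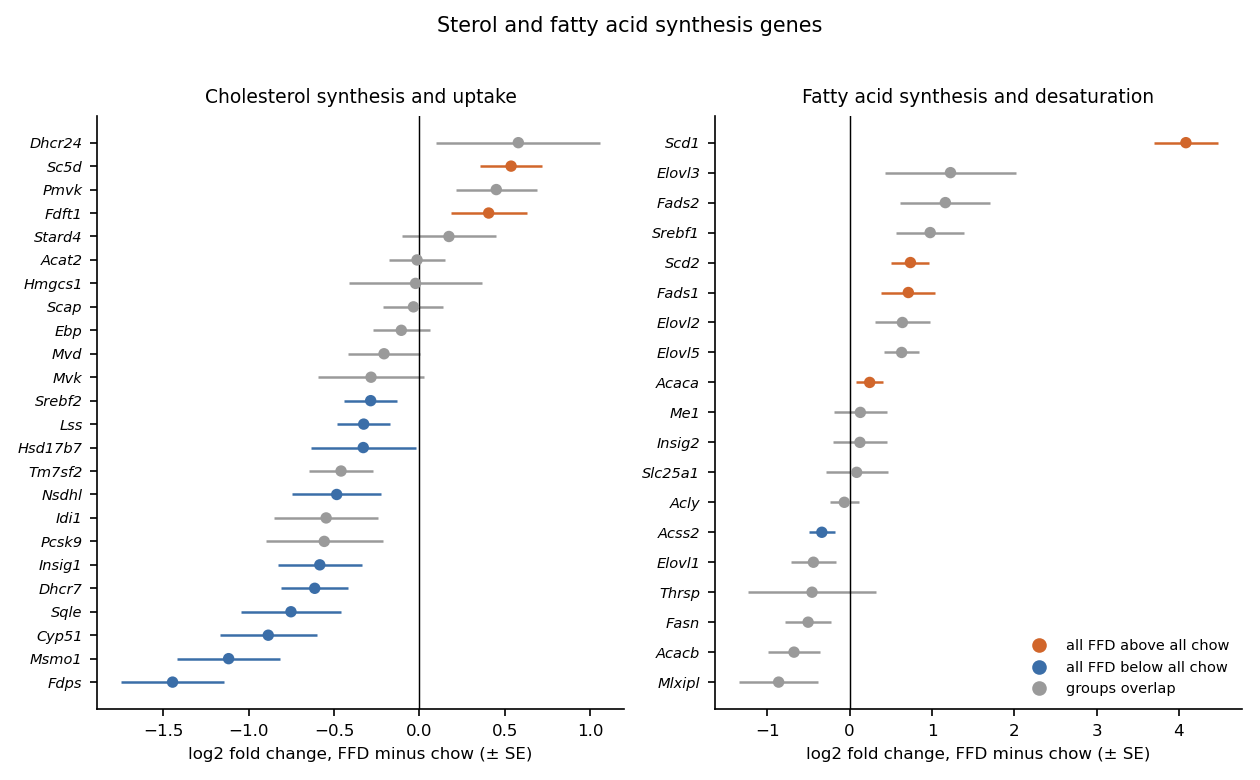
Log2 fold change of FFD minus chow with its standard error for 24 of the 26 genes of cholesterol synthesis and uptake and 19 genes of fatty acid synthesis and desaturation. Orange genes have all FFD libraries above all chow libraries, blue genes all below and grey genes overlap. Scd1 stands at 4.09, and 10 cholesterol genes are blue.

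The promoters of these genes, from 250 bases before to 50 after the start in RefSeq on GRCm38, were searched for the sterol response element TCACNCCAC on either strand. It was present in 388 of 27025 promoters (1.44%), in 1 of 18 matched cholesterol genes and in 1 of 15 matched fatty acid genes. The former was Hmgcs1, the HMG-CoA synthase gene, whose level overlapped between the diets (12.4, 8.97 and 18.9 on chow and 11.3, 8.39 and 21 on the FFD). It is shown with the element in capitals, as the sterol gene of the list that carries it, at chr13:119690189-119690247 on the plus strand.
Hmgcs1: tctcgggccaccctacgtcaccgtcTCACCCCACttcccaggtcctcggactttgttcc

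Genes that store, release and burn fat went both ways. Besides Lpin1, its relative Lpin2 lay below chow in the list of 10 triglyceride synthesis genes, at 7.03, 17.4 and 8.58 on chow and 4.19, 4.87 and 6.69 on the FFD. Gpat4, an acyltransferase of the first step, lay above, at 32.7, 48.4 and 25 on chow and 59.3, 58.6 and 52.8 on the FFD. In that list 2 of 10 genes thus lay below (20%, against 9.71%) and 1 above (10%, against 8.62%), with a median of 0.17. Of 17 lipid droplet and lipolysis genes, 4 lay above (23.5%, against 8.62%) and 1 below (5.88%, against 9.71%). Fitm2, which helps droplets form, was at 22.8, 21.1 and 17.5 on chow and 30.7, 30.1 and 43.7 on the FFD. G0s2, an inhibitor of the triglyceride lipase, was at 317, 3.11 and 173 on chow and 459, 387 and 558 on the FFD. Pnpla2, the gene of that lipase, was at 35.3, 60.3 and 38.5 on chow and 24.6, 23.5 and 27.8 on the FFD. The inhibitor and the lipase were thus on opposite sides of chow, with adjusted p-values of 0.396 and 0.326 from limma. Lipa, the lysosomal acid lipase gene, and Hsd17b11 lay above as well, while the droplet coat gene Plin2 overlapped at 279, 44 and 199 on chow and 119, 190 and 294 on the FFD. Without chow replicate 2 the droplet list was even and near the background, with 4 genes above and 4 below (23.5% each, against 19% and 19.1%). Of the 10 triglyceride genes, 1 lay above (10%, against 19%) and 3 below (30%, against 19.1%) without that library.

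Of 40 genes of fatty acid oxidation and PPAR alpha targets, 2 lay above chow (5%, against 8.62%), 1 below (2.5%, against 9.71%) and 37 overlapped. Of the log2 fold changes 30 were positive, with a median of 0.32. That median rested on chow replicate 2, since it was 0.04 without it, with 3 of the 40 genes above (7.5%, against 19%) and 2 below (5%, against 19.1%). Ppara, the nuclear receptor gene itself, was at 5.16, 2.83 and 3.09 on chow and 6.45, 5.5 and 8.4 on the FFD. Acot4, a peroxisomal thioesterase gene, was the other gene above, and Angptl4, an inhibitor of lipoprotein lipase, the one below. Cpt1a, which admits fatty acids to mitochondria, overlapped at 23.7, 22.5 and 16.7 on chow and 16.7, 20.6 and 24.7 on the FFD. Lpl, the lipoprotein lipase gene that macrophages and other non-parenchymal cells express, was at 1.4, 0.863 and 2.42 on chow and 6.92, 7.47 and 6.58 on the FFD (log2 fold change 1.69, adjusted p = 0.198 from limma). On the HiAD it was higher again, at 33.9, 23 and 114. Fgf21, a hormone of the fasted or fructose-fed liver, overlapped at 28.6, 4.44 and 16.6 on chow and 10.3, 19.1 and 50.1 on the FFD, and its direction turned without chow replicate 2 (log2 fold change 0.68 with it and -0.01 without it).

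Of 20 genes for the use of fructose and glucose, 3 lay below chow (15%, against 9.71%) and 1 above (5%, against 8.62%). Without chow replicate 2 it was 7 below (35%, against 19.1%) and 1 above (5%, against 19%). Tkfc, the triokinase that takes the glyceraldehyde made from fructose, was at 41.1, 40.2 and 78 on chow and 15.8, 18.2 and 15 on the FFD (log2 fold change -1.58, standard error 0.36, adjusted p = 0.172 from limma). Khk, the ketohexokinase of the first step, overlapped at 52.6, 34 and 64.7 on chow and 69.1, 45.6 and 48 on the FFD. Tkfc, which acts after Khk, thus lay below chow while Khk did not. Pklr, the liver pyruvate kinase gene, lay below and Sord, the sorbitol dehydrogenase gene, above. Of 14 genes of gluconeogenesis and glycogen, 4 lay below (28.6%, against 9.71%), Slc37a4 among them, and 1 above (7.14%, against 8.62%). The gene above was Ppp1r3c, a glycogen targeting subunit, at 21.5, 1.36 and 11.2 on chow and 62, 55 and 38.1 on the FFD. Pck1 and G6pc, the genes of the control steps of gluconeogenesis, overlapped. Of these 14 genes, 4 lay below (28.6%, against 19.1%) and 3 above (21.4%, against 19%) without chow replicate 2.

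Genes of nitrogen disposal and of periportal hepatocytes were on the low side of chow. Of 33 genes of the urea cycle and of amino acid breakdown, 8 lay below chow (24.2%, against 9.71%) and 0 above, with a median of -0.60. Asl, the argininosuccinate lyase gene, was at 34.3, 90.4 and 24.5 on chow and 21.2, 15.6 and 7.8 on the FFD. Arg1, the liver arginase gene, was at 508, 890 and 541 on chow and 402, 391 and 248 on the FFD. Chow replicate 2 was the highest library in both genes, and without it 11 of the 33 genes lay below (33.3%, against 19.1%), 2 lay above and the median was -0.41. Cebpb, a transcription factor of liver metabolism and of the acute phase, was at 216, 457 and 633 on chow and 141, 176 and 136 on the FFD. Of 25 periportal genes, which include Asl and Arg1 again, 7 lay below (28%, against 9.71%) and 0 above. Without chow replicate 2 it was 9 below (36%, against 19.1%) and 3 above (12%, against 19%). Of 24 pericentral genes, 4 lay above (16.7%, against 8.62%) and 1 below (4.17%), and without chow replicate 2 it was 6 above (25%, against 19%) and 3 below (12.5%). Those above included Cyp2c29, a cytochrome P450 gene, at 22.7, 32.6 and 24.6 on chow and 70.5, 47.9 and 59.8 on the FFD. The glutamine synthetase gene Glul, which marks the cells next to the central vein, overlapped at 298, 164 and 269 on chow and 227, 320 and 394 on the FFD.

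Genes that dispose of drugs and retinoids included some of the wider gaps. Of 28 cytochrome P450 genes of drug metabolism, 6 lay below (21.4%, against 9.71%) and 1 above (3.57%, against 8.62%). Without chow replicate 2 it was 10 of 27 below (37%, against 19.1%) and 3 above (11.1%, against 19%). Cyp3a11, a target of the xenobiotic receptor PXR, was at 179, 255 and 189 on chow and 89.5, 13.4 and 111 on the FFD, and at 858, 766 and 729 on the HiAD. Members of the Cyp2c family, of which Cyp2c40, Cyp2c68 and Cyp2c69 were below and Cyp2c29 above, are close in sequence, so their reads may be shared. Of 23 retinol genes, 5 lay above (21.7%, against 8.62%) and 3 below (13%, against 9.71%). Without chow replicate 2 it was 6 above (26.1%, against 19%) and 7 below (30.4%, against 19.1%). Cyp26a1, which breaks down retinoic acid and is induced by it, was at 2.75, 13.1 and 6.47 on chow and 0.59, 0.167 and 0.624 on the FFD (log2 fold change -2.34, standard error 0.51, adjusted p = 0.137 from limma). Cyp26a1 reached 1 FPKM in chow libraries only, so it could enter the test only by being high there. Rdh16, a retinol dehydrogenase, was at 23.7, 8.09 and 11.9 on chow and 35.6, 26 and 39.5 on the FFD. Cyp26a1 and Cyp26b1, the retinoic acid hydroxylases, were below chow, while Rdh16, Rdh9, Adh1 and Adh4, which oxidise retinol, were above. Over all 23 retinol genes the median log2 fold change was -0.007, with 11 positive and 12 negative, so the list as a whole had no lean. Cyp7a1, the rate-limiting enzyme of bile acid synthesis, overlapped widely at 11, 85.2 and 5.52 on chow and 33, 7.24 and 37.4 on the FFD.

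**Figure D3:**
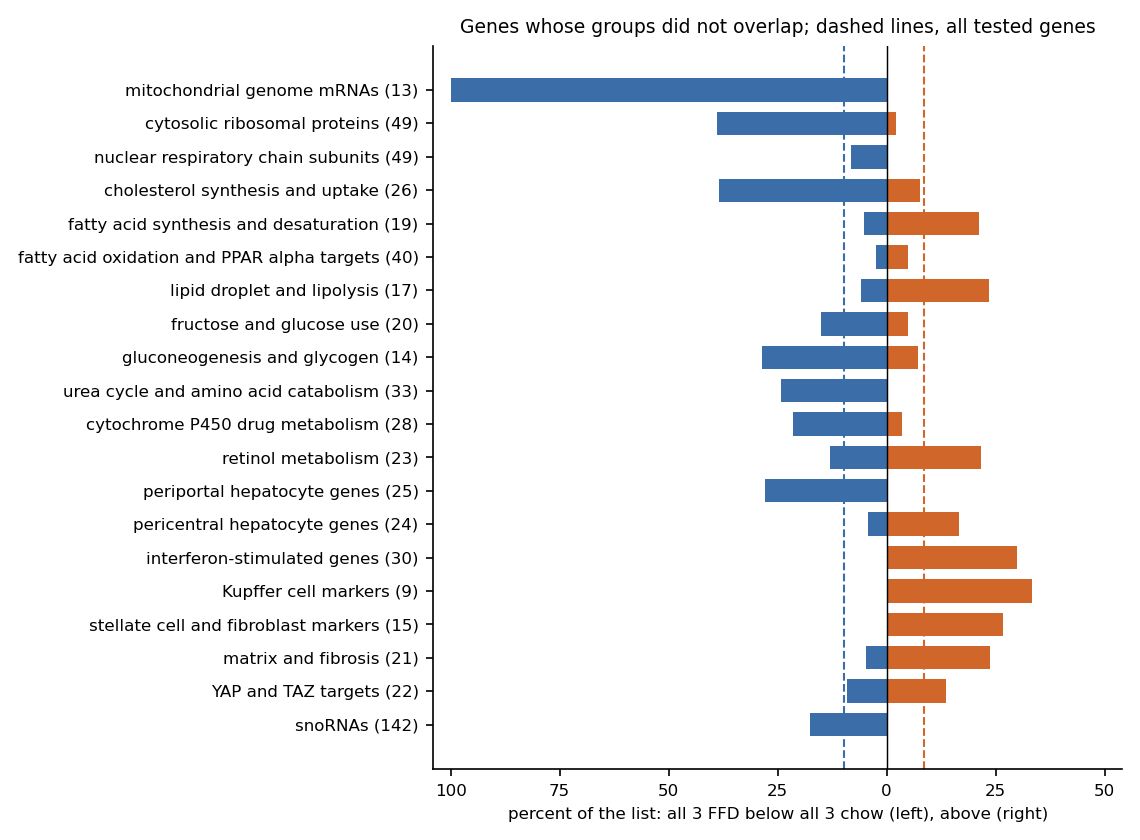
For 20 gene sets, the percent of tested members with all FFD libraries above all chow libraries (orange, right) or below them (blue, left), with the number of tested genes in brackets. Dashed lines mark all tested genes, 8.62% above and 9.71% below. The mitochondrial genome mRNAs reach 100% below, and the Kupffer cell and interferon sets reach 33.3% and 30% above with 0 below.

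Transcripts of the mitochondrial genome, which encodes 13 subunits of the respiratory chain, were all below chow. Each of the 13 mRNAs had all FFD libraries below all chow libraries, with log2 fold changes of -1.49 to -1.17 and a median of -1.38. None passed, with a smallest adjusted p of 0.246 from limma, and 9 passed as lower with sample quality weights. The 13 come from the same genome and are copied as long joint transcripts, so they are not 13 independent observations. mt-Co1, a subunit of cytochrome oxidase, was at 20451, 18670 and 30500 on chow and 13129, 6504 and 9127 on the FFD. mt-Nd1, a subunit of complex I, was at 8185, 7792 and 15489 on chow and 4376, 2855 and 4787 on the FFD. The median was -1.53 without chow replicate 2 and -1.17 without FFD replicate 31. With values as deposited 11 of 13 were below without overlap (84.6%, against 4.25%). On the HiAD mt-Co1 was at 16706, 20335 and 28854, of which the first was below the lowest chow library and the others in the range of chow. By level the 13 fell into 7 that exceeded 900 in every library and 6 (mt-Nd3, mt-Nd4l, mt-Co2, mt-Co3, mt-Atp6 and mt-Atp8) that stayed below 31. Among the 6, mt-Co2 was at 23.5, 13.7 and 30.2 on chow and 8.28, 5.11 and 8.74 on the FFD. The cause of this gap in level was not tested, and the levels of the 6 are uncertain for that reason.

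**Figure D4:**
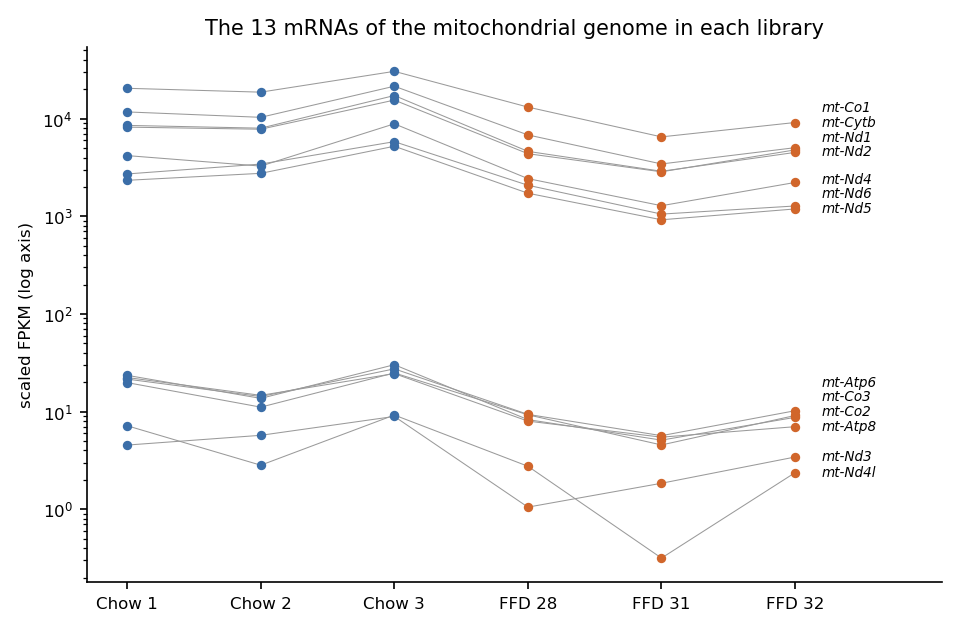
Scaled FPKM, on a log axis, of the 13 mitochondrial genome mRNAs in each chow library (blue) and each FFD library (orange), with a line joining the values of a gene. Every gene is lower in all 3 FFD libraries than in all 3 chow libraries, and a gap separates 7 genes above 900 from 6 below 31.

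The count of nuclear genes of the respiratory chain depended on chow replicate 2. Of 49 nuclear respiratory chain genes, 4 lay below chow (8.16%, against 9.71%) and 0 above, with a median of -0.21, and Ndufa10, Ndufv2 and Sdhb were among those below. When that library was left out, 31 of the 49 lay below (63.3%, against 19.1%) and 0 above, with a median of -0.41. Of 49 cytosolic ribosomal protein genes, 19 lay below chow (38.8%, against 9.71%) and 1, Rps9, above (2.04%), with a median of -0.27, and without chow replicate 2 it was 27 below (55.1%, against 19.1%) and 3 above (6.12%). Rpl14 was at 101, 130 and 174 on chow and 71.6, 66.5 and 77.7 on the FFD. Rpl10a was at 18.8, 14.1 and 20.3 on chow and 9.04, 9.51 and 9.33 on the FFD. None of the 49 passed, and many have near-identical pseudogenes that may share their reads. The median of the ribosomal list moved with the scaling, to -0.08 with values as deposited, when the median of all tested genes was 0.15 and 10 of 49 lay below (20.4%, against 4.25%).

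Interferon-stimulated genes, which limit virus growth and are switched on by signals from the interferon receptors, leaned to the high side of chow, with 26 of 30 log2 fold changes positive. Of 30 tested genes, 0 passed, 9 lay above chow without overlap (30%, against 8.62%) 0 below and 21 overlapped, with a median of 0.52. Bst2, which encodes the restriction factor tetherin, was at 85.3, 60.4 and 79.9 on chow and 134, 184 and 159 on the FFD. Irf7, a transcription factor of interferon production, was at 4.67, 3.9 and 4.16 on chow and 9.67, 17.7 and 5.39 on the FFD (log2 fold change 1.05, standard error 0.35, adjusted p = 0.308 from limma). Irgm1, a GTPase of host defence, was at 5.45, 3.08 and 4.72 on chow and 5.61, 10.6 and 6.44 on the FFD. FFD replicate 31 was the highest library for each of these genes. Without it 8 of 28 genes lay above (28.6%, against 11.5%), 2 below, and the median was 0.32. Without chow replicate 2, 13 of 29 lay above (44.8%, against 19%) and 1 below. Ifit2, Ifit3b, Rtp4, Cmpk2, Gbp2 and Lgals3bp were the other genes above. On the HiAD, Irf7 was at 2.98, 3.99 and 1.28 and Bst2 at 77.6, 99.4 and 46.5, near or below chow.

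The core of the interferon response element, a TTTC, any 2 bases and again a TTTC on either strand, was found in the promoters of 13 of 21 matched interferon genes (61.9%) and in 1079 of all 27025 (3.99%). Of the 13 genes with it, 4 lay above chow without overlap, and the median log2 fold change of the 13 was 0.59. Of the 8 without it, 4 lay above and the median was 0.67. The presence of these letters near the start therefore did not separate the genes above chow from the others. Windows of 3 of those 4 genes are shown with the match in capitals, as the part of the promoter that interferon factors are known to bind, on GRCm38 at chr8:71537562-71537627 (minus strand) for Bst2, chr11:48871410-48871475 (minus strand) for Irgm1 and chr3:142620579-142620638 (plus strand) for Gbp2.
Bst2: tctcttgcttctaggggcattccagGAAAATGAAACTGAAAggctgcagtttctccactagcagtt
Irgm1: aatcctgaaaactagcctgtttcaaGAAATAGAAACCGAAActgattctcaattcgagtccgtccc
Gbp2: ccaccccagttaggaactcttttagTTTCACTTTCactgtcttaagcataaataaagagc

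Markers of Kupffer cells went with FFD replicate 31 in part. The summed scaled FPKM of 9 Kupffer cell markers was 152 to 181 on chow and 318, 630 and 183 in FFD replicates 28, 31 and 32. Of the 9, 3 lay above chow (33.3%, against 8.62%) and 0 below, and without chow replicate 2 it was 5 above (55.6%, against 19%). Cd5l, a secreted scavenger protein of these cells, was at 27.2, 37.3 and 31.6 on chow and 101, 300 and 69 on the FFD (log2 fold change 1.98, standard error 0.48, adjusted p = 0.179 from limma). Slc40a1, the iron exporter ferroportin, was at 18, 15.8 and 18.6 on chow and 36.1, 44.1 and 28.2 on the FFD. Timd4, a receptor for dying cells, was at 2.27, 4.72 and 5.01 on chow and 6.01, 20.5 and 5.17 on the FFD, and Clec4f overlapped. The median of the list was 0.78, and 0.35 without FFD replicate 31. Summed markers of recruited and lipid-associated macrophages were 82.3 to 143 on chow and 163, 414 and 118 on the FFD, and those of T, NK and B cells 37.4 to 65.2 on chow and 59.6, 154 and 30.01 on the FFD. Summed neutrophil markers were 1.02, 83.5 and 3.2 on chow and 47.5, 162 and 1.02 on the FFD, so 1 chow and 2 FFD libraries held them. All 4 sums were highest in FFD replicate 31, which was also the highest library for the interferon genes named above, and the part of leukocyte RNA in those genes was not tested.

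**Figure D5:**
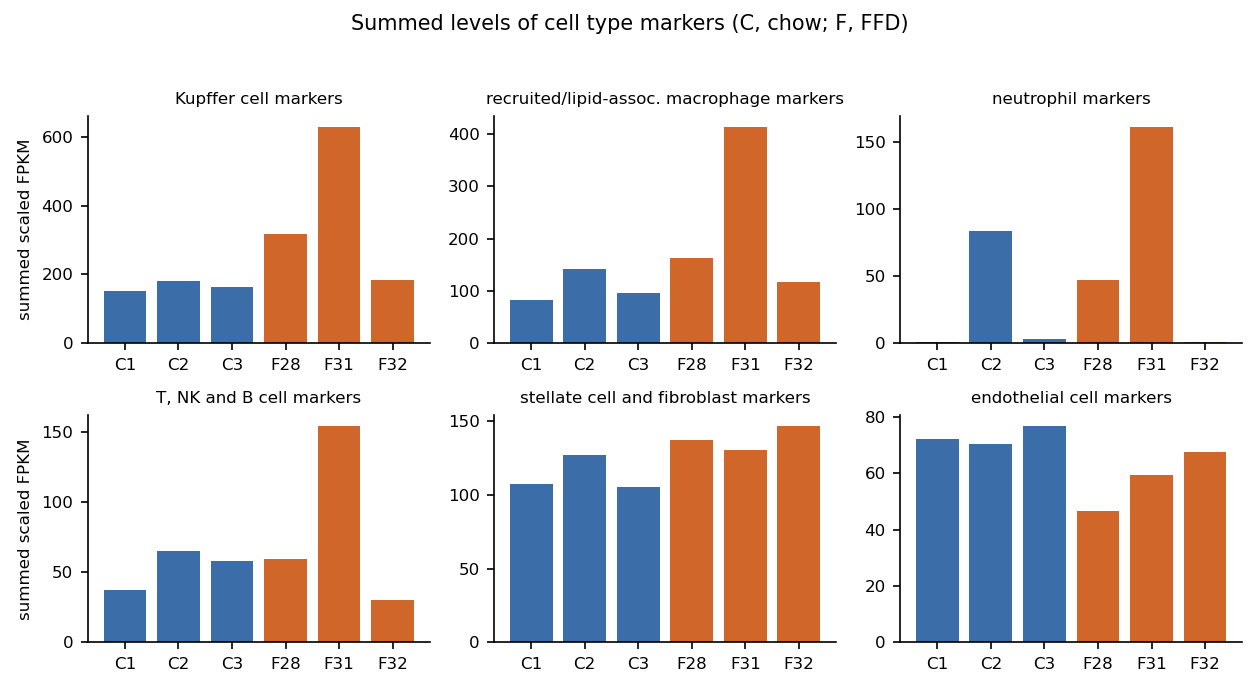
Summed scaled FPKM of marker genes for 6 cell types in each chow library (blue) and each FFD library (orange). FFD replicate 31 is the highest bar for Kupffer cells, recruited macrophages, neutrophils and lymphocytes, whereas the stellate cell bars are 105 to 127 in chow libraries and 130 to 147 in FFD libraries.

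Markers of stellate cells, the vitamin A storing cells that lay down matrix in fibrosis, were above chow in sum, at 105 to 127 in chow libraries and 130 to 147 in FFD libraries. Of 15 tested markers, 4 lay above (26.7%, against 8.62%) and 0 below, and without chow replicate 2 it was 8 above (53.3%, against 19%) and 0 below. Colec11, a soluble lectin, was at 13.7, 16.4 and 13.7 on chow and 20.8, 21.2 and 24.4 on the FFD. Ngfr, the low-affinity neurotrophin receptor, was at 0.901, 0.502 and 0.337 on chow and 2.11, 2.34 and 2.66 on the FFD. Ngfr reached 1 FPKM in FFD libraries only, so it could enter the test only by being high there. Of 21 tested matrix genes, 5 lay above (23.8%, against 8.62%) and 1 below (4.76%, against 9.71%). Without chow replicate 2 it was 10 of 20 above (50%, against 19%) and 1 below (5%, against 19.1%). Col14a1, a fibril-associated collagen gene, was at 2.02, 2.28 and 1.93 on chow and 3.17, 3.29 and 3.07 on the FFD. Mmp14, a membrane-bound collagenase gene, was at 7.93, 9.8 and 6.72 on chow and 12.4, 16 and 10.7 on the FFD. The other 34 listed matrix genes, with the fibrillar collagen genes Col1a1 and Col3a1 among them, did not reach 1 FPKM in 2 libraries, nor did the myofibroblast marker Acta2. Summed endothelial markers were 70.3 to 76.7 in chow libraries and 46.6 to 67.4 in FFD libraries. Of 13 tested endothelial markers, 3 lay below (23.1%, against 9.71%) and 1 above (7.69%), but with values as deposited 0 lay below. Summed hepatocyte markers were 33981 to 47193 in chow libraries and 25525 to 32225 in FFD libraries. Of these 14 markers, 2 lay below (14.3%, against 9.71%) and 0 above, with a median of -0.32. Without chow replicate 2 it was 3 below (21.4%, against 19.1%) and 2 above (14.3%, against 19%), and the median was 0.03. The defining adipocyte genes Lep, Plin1 and Retn were at 0 in all 6 libraries, while Car3, which muscle, fat and liver express, was at 62.4, 0.995 and 72.3 on chow and 509, 113 and 576 on the FFD.

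The genes through which the study follows matrix mechanics showed no call between these diets. Of 22 tested YAP and TAZ targets, 3 lay above chow (13.6%, against 8.62%) and 2 below (9.09%, against 9.71%), with a median of 0.21. Without chow replicate 2 it was 7 above (31.8%, against 19%) and 3 below (13.6%, against 19.1%). Ccn2, a secreted matricellular factor, was at 3.21, 12.8 and 3.52 on chow and 1.06, 3.19 and 1.41 on the FFD (log2 fold change -1.22, standard error 0.44, adjusted p = 0.336 from limma). Ccn1, its relative, overlapped at 8.69, 1.37 and 8.14 on chow and 6.2, 4.21 and 14 on the FFD. Tns1, which encodes the focal adhesion adaptor tensin 1, was at 1.77, 2.11 and 1.77 on chow and 1.04, 1.28 and 1.34 on the FFD (log2 fold change -0.38, standard error 0.17, adjusted p = 0.432 from limma). Ccn2 and Tns1 were thus on the low side of chow on the FFD, where their HiAD levels were 19.4, 11.4 and 20.5 and 3.51, 3.7 and 4.09.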

How the data were processed

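Liver RNA-seq of 6 libraries, 3 chow and 3 FFD, was analysed within a fit of all 14 libraries and 5 groups. Samples were grouped by their labels, with 0 columns unmapped. The values deposited by the authors were taken as FPKM, since most are fractional and their sums over genes, times exon length in kilobases, were alike in all libraries (901200 to 993486), although the table's name speaks of raw counts. The authors describe mapping by Dropseq tools to GRCm38 with GENCODE M18, filtering by UMI, and limma with voom and sample weights. The sources used here do not give the step that made FPKM. Count models had been planned and could not be run on these values.

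From 55583 entries, 27 with a date for a name and 129 exact duplicates were dropped. Libraries were scaled by a mean of log ratios, trimmed by 30% at each end, over 6522 genes. Tests used limma on log2 values of the scaled FPKM with a pseudocount of 1 added, so fold changes of genes near 1 FPKM are understated, with a mean-variance trend, robust spread and Benjamini-Hochberg adjustment over 10789 genes. With 3 libraries a group, an exact permutation test of a single gene cannot go below 0.1 and was not used.

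The genes and the 57 lists were chosen with earlier results of these data known. Named were all called genes, the next 15 by p in each direction, up to 3 members of highest level of a list without a call, Ager and the main regulators and rate-limiting enzymes. Other members were named because the groups did not overlap. Some genes and 1 sequence are not reported here. Alternatives changed the filter, pseudocount, scaling, libraries in the fit, weights, robust option and single libraries. The fit was tested on simulated data. Promoters came from RefSeq for GRCm38.p6, and other sequences and positions from GENCODE M21 on GRCm38. Software was blastn 2.17.0, numpy 2.4.6, pandas 2.3.3, Python 3.11.15 and, under R 4.3.3, the packages limma 3.58.1 and data.table in version 1.17.8.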

Additional observations from a re-analysis of the deposited data

How the results depend on the processing

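Scd1 and Gm13194 passed under all 18 alternatives. Of the other calls Gm25296 held in 14, Gm23017 in 13, Lpin1 in 12, Gm22973 in 11, Mir1906-1 in 9 and Selenbp2 in 8. Against 1 gene higher and 7 lower, the number lower was 12 with no filter on low values, 2 with a pseudocount of 0.1, 4 with 0.5 and 4 in a fit of the 6 libraries alone. The number higher was 8 with values as deposited and 2 with equal sums without mitochondrial genes. Without the libraries labelled RageHepKO it was 6 higher and 12 lower. With sample quality weights it was 249 and 362, and with such weights in a fit of the 6 libraries alone, chosen after seeing the data, 24 and 85. Leaving out each library in turn gave 1 to 11 higher and 1 to 19 lower, with 11 higher without chow replicate 1 and 19 lower without chow replicate 2. The log2 fold change of Fgf21, 0.68, turned to -0.079 with sample quality weights and -0.057 with weights in the fit of the 6 libraries, and ran from -0.012 without chow replicate 2 to 1.21 without chow replicate 1. The cause was not tested. With no filter, which tests more genes, the number of genes with FFD above chow without overlap was 1396 and that of genes with FFD below chow without overlap 1762, against 930 and 1048. It was 1905 and 459 with values as deposited, and with equal sums without mitochondrial genes, where 10596 genes passed the filter, 1375 lay above and 599 below. Values of single genes near 1 FPKM are limited by a depth that is unknown. No paired analysis was possible because the chow and FFD libraries share no replicate number.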

Other observations

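Sex-biased liver genes, which growth hormone controls, went both ways. Of 29 male-biased genes, 5 lay above chow without overlap and 2 below (17.2% and 6.9%, against 8.62% and 9.71% of all tested genes). Without chow replicate 2 the lean turned, with 5 above and 9 below (17.2% and 31%, against 19% and 19.1%) and a median log2 fold change of -0.15 instead of 0.20. Of 12 tested female-biased genes, 3 lay above and 3 below (25% each, against 8.62% and 9.71%), with a median of -0.55. Without chow replicate 2, 3 of 10 lay above and 3 below (30% each, against 19% and 19.1%), with a median of 0.02. Hsd3b5, a steroid dehydrogenase of male liver, was at 62.9, 5.61 and 56.8 on chow and 131, 104 and 168 on the FFD in scaled FPKM, and at 0 in all 3 HiAD libraries. Mup21, a major urinary protein gene, was at 22.7, 13.8 and 24.3 on chow and 43.7, 46 and 39.6 on the FFD, while Selenbp2 fell. Cish, an inhibitor of growth hormone signalling that the hormone induces, was at 4.7, 5.81 and 4 on chow and 2.57, 0.585 and 2.49 on the FFD. None but Selenbp2 passed in limma, and Mup genes are near-identical, so their reads may be shared.

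Some values hung on chow replicate 2 alone. Mir7087 was at 52.9 and 54.7 in chow replicates 1 and 3, at 0.0186 in chow replicate 2 and listed at 0 in all FFD and all HiAD libraries. Mir192, a microRNA gene of liver and gut, was at 4.54 and 3.74 in chow replicates 1 and 3 and listed at 0 in chow replicate 2 and the FFD libraries. Both passed as lower without that library and neither did with it.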
